A study of Homo sapiens with 18 samples.

Results

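The cytosolic ribosomal protein genes were taken as the gene symbols that name a protein of the small subunit (RPS followed by a number), of the large subunit (RPL followed by a number) or of the stalk (RPLP0, RPLP1, RPLP2), with their numbered paralogs, and without RPS6 kinases and pseudogenes. Of 60642 symbols in the count files, 83 matched, and the 78 with a mean of at least 10 counts over the 18 libraries were kept. They comprised 28 small subunit and 50 large subunit genes. They were chosen by their symbol and by their mean count, so their level is given below as a description. RNA was sequenced from MDA-MB-231 cells, an established human line of triple-negative breast cancer with a mesenchymal character. The cells carried a control siRNA with a non-specific sequence (siNS), an siRNA against HP1γ (siHP1γ, encoded by CBX3) or one against PRMT5 (siPRMT5), and each was given 100 nM dexamethasone (Dex), a synthetic glucocorticoid, or the same volume of the vehicle ethanol (Eth) for 8 h. This gave 6 conditions with 3 biological replicates each, all in 1 cell line and all transfected with an siRNA. HP1γ reads methylated histone H3 on chromatin and PRMT5 is an arginine methyltransferase, and the study asked how both act in glucocorticoid receptor signalling.

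Ribosomal proteins are made in near equal numbers from genes scattered over the genome and are built onto ribosomal RNA in the nucleolus, while a protein left without its partners is degraded. Their mRNAs are among the most abundant of a growing cell. Most of them start with a cytosine followed by a run of pyrimidines, the 5′ terminal oligopyrimidine (TOP) motif, through which mTOR signalling and LARP1 set their translation. Many of the genes have processed pseudogenes with nearly the same sequence, and many carry snoRNAs, the guides of ribosomal RNA modification, in their introns.

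Each library held between 8682992 and 12472381 counts on genes. CBX3 had a level of 255.5 ± 20.07 CPM in siNS Eth (a gene's count scaled to the library size, mean ± SD, n = 3) and at 9.89 ± 0.657 in siHP1γ Eth, and PRMT5 at 249.2 ± 19.96 in siNS Eth and at 7.41 ± 1.17 in siPRMT5 Eth. With Dex the targets were at 13.7 ± 2.23 (CBX3, siHP1γ) and 10.5 ± 1.07 CPM (PRMT5, siPRMT5). The mesenchymal markers VIM, CD44, AXL, EGFR and CAV1 were present in every library, SPARC stayed between 5.81 and 10.7 CPM, and of 5 markers expected to be low ESR1, PGR and CDH1 did not pass 0.218 CPM while ERBB2 (24.5 to 36.0 CPM) and EPCAM (8.57 to 14.0 CPM) were present. Of 6 markers of other cell types, PTPRC, CD3E, HBB and ALB were at or near 0, and PECAM1 and COL1A1 reached 8.15 and 15.1 CPM.

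The first bases of the mRNAs of members on which the results turn are shown as 30 bases around the RefSeq start (GRCh38.p14, 12 bases before to 18 after, 5′ to 3′ on the strand of the gene), with the pyrimidine run that begins within 5 bases of the start in capitals. Of the 78 genes, 63 had an entry. The first 7 carried a run of at least 5 pyrimidines that starts with C.
RPS19, chr19:41860243-41860272, + strand: aaccccgtcgttCCCTTTCCCCTggctggc
RPS7, chr2:3575248-3575277, + strand: tccgccctCCTCCTCgcgctgtttccgcct
RPL21, chr13:27251546-27251575, + strand: ccccgcctCTTTCCTTTCggccggaaccgc
RPL38, chr17:74203666-74203695, + strand: ggaagtctcgttCTTTTTCgtccttttccc
RPS28, chr19:8321484-8321513, + strand: ccgaagcacgtgaCTCCTCTCCgccagacc
RPL22, chr1:6199578-6199607, - strand: ttcgctcaCCTCCCTTTCTaactccgctgc
RPL22L1, chr3:170870178-170870207, - strand: ggccgtagCTTCCTCTCTgctctcgcggcc
The next 5 had no such run at the annotated start, and a shorter stretch is in capitals.
RPL15, chr3:23916533-23916562, + strand: gctggggCCTgctggaggagcttcacgcag
RPL9, chr4:39458905-39458934, - strand: cgtaatgaCgacagacgttctttctttgct
RPS27L, chr15:63157460-63157489, - strand: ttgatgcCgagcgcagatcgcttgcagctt
RPL7L1, chr6:42879604-42879633, + strand: aagtgcggcgCCgtagctaggagcggacgc
RPL26L1, chr5:172958717-172958746, + strand: cttccaggggtCggcgaacgaaacgcggag

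A run of at least 5 pyrimidines starting with C was found at 48 of the 63 starts (76.2%), against 22.5% of the 10035 promoters of genes tested. The 3 paralogs RPS27L, RPL7L1 and RPL26L1 were without it, while the paralog RPL22L1 had a run of 10 and its partner RPL22 a run of 11. In the 300 bases from 250 before to 50 after the start, read on both strands, CCGGAA (the core bound by ETS factors such as GABP) was in 54.0% of the members and in 30.1% of the promoters of genes tested. ATGGCG, part of the YY1 site, was in 36.5% against 18.3%, and TCGCGA in 22.2% against 5.98%. GGGCGG, the SP1 core, was in 52.4% against 70.4%, and TATAAA in 9.52% against 5.50%. CACGTG, the E-box that MYC binds, was in 6.35% against 9.97%, and AGAACA, the hexamer of glucocorticoid receptor sites, in 11.1% against 8.51%. These are matches of letters in a window and not measured binding sites, and CCGGAA can lie next to the pyrimidine run, as in RPL21 above.

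The 78 genes lay on 21 chromosomes, 11 of them on chromosome 19, and 27 held at least 1 annotated snoRNA within their bounds (GENCODE 44, hg38). The mean level over the 18 libraries ranged from 6.61 CPM for RPS27 to 1355 CPM for RPL5, with a median of 286 CPM. Scaled by the spliced length of the canonical transcript, RPS20 (1476 CPM per kb), RPL27 (1380), RPL5 (1318) and RPL30 (1297) were among the highest, and RPS26 (10.1), RPS27L (10.9), RPL36A (16.2), RPL17 (18.1) and RPS27 (18.8) lowest. For RPS27L that transcript is 6110 bases long, and its unscaled level was 66.4 CPM. Whether counts rise with transcript length in these libraries was not tested. Symbols that did not reach the limit were far below it: RPL10L and RPS18 had a mean of 0.0556 counts, RPL3L 0.556 and RPS9 3. Those just inside the limit were RPS27 with a mean of 67.4 counts, RPL17 with 114 and RPS26 with 118.

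Pseudogenes took part of these reads. The files listed 1054 symbols made of a member's symbol followed by P and a number, of which 278 had a mean of at least 1 count, and they held 26.05% of the counts of genes and pseudogenes together. For 18 members at least 50% of the pooled counts were on pseudogenes, among them RPL39 (94.9%), RPL7 (81.8%), RPL22 (81.2%) and RPS28 (77.0%). For RPL22L1, RPL39L and RPS27L no such symbol was listed, and for RPL38 the share was 0.258%. RPS18 itself had 1 count at most in a library, while its pseudogene symbols had a mean of 605 counts. The level of a gene with a large pseudogene share is therefore uncertain, and where adding the pseudogene counts gave or took a call of a named gene, that is said beside the result.

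After HP1γ depletion many ribosomal protein mRNAs were lower, most by a small amount and RPS20 to 40.9% of its siNS level with Eth, and none was called higher. With Eth, 44 of the 78 genes were lower in siHP1γ than in siNS cells at an adjusted p under 0.05 and 0 were higher, where 15.2% of all genes tested were lower and 16.5% were higher (31.8% in either direction). All 78 fold changes were below 0, with a median of -0.27 on the log2 scale against 0.01 over all genes tested. With Dex, 32 were lower and 0 higher, against 12.3% and 11.7% of all genes (24.0% in either direction), and the median was -0.23. The values are from edgeR's quasi-likelihood test with Benjamini-Hochberg adjustment. DESeq2 also called 0 higher in both, and at an unadjusted p under 0.05 edgeR had 0 higher as well.

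**Figure D1:**
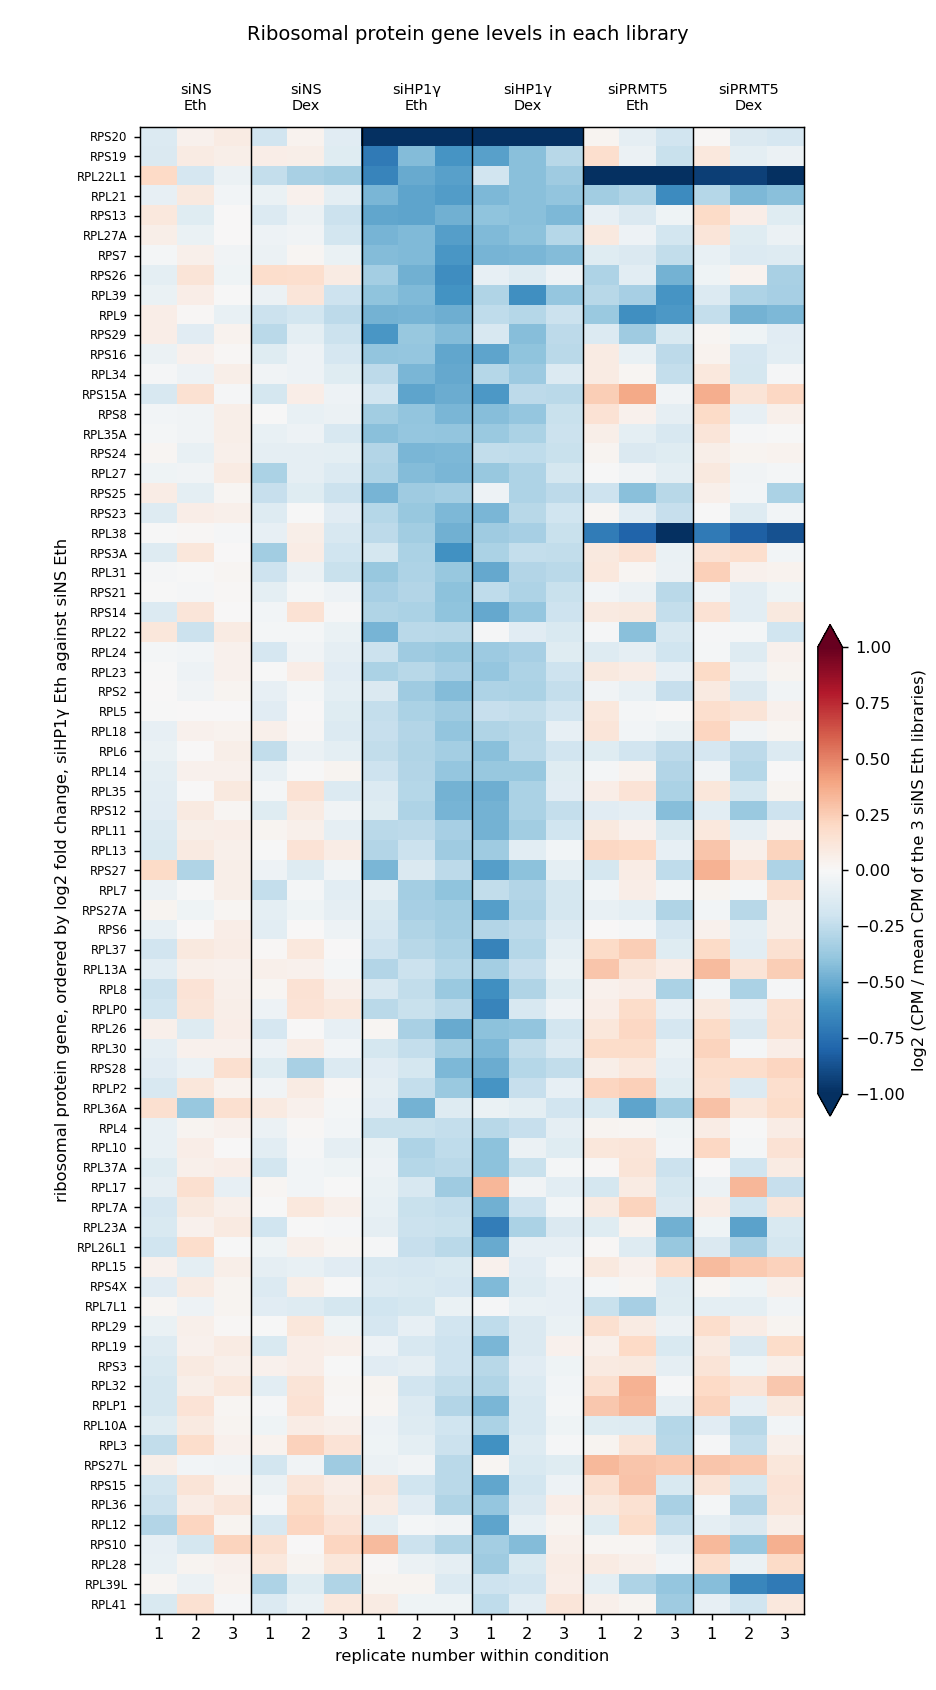
Level of 75 of the 78 ribosomal protein genes (rows, ordered by the fold change of siHP1γ Eth against siNS Eth) in each of the 18 libraries (columns, 3 replicates per condition), as log2 of the CPM over the mean CPM of the siNS Eth libraries, with the colours ending at -1 and 1. The 6 siHP1γ libraries are blue in most rows and darkest for RPS20, and the 6 siPRMT5 libraries are dark in the rows of RPL22L1 and RPL38.

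The comparisons with Eth and with Dex share no library. Of the 32 genes lower with Dex and the 44 lower with Eth, 25 were lower in both, which is 78.1% of the first and 56.8% of the second, and 73 of 78 fold changes were below 0 in both. Over all genes tested, 71.1% of fold changes had the same sign in both. Pearson's r between the fold changes with Eth and with Dex was 0.56 for the members and 0.66 for all genes. Spearman's rho for the members was 0.21. Of the 6 condition means of each gene, the lowest was an siHP1γ condition for 68 of 78 genes and an siPRMT5 condition for 9. The overlap of calls and the lowest condition were not counted over all genes. In the small subunit 19 of 28 genes were lower with Eth (median -0.34) and 14 with Dex (median -0.27), and in the large subunit 25 of 50 with Eth (median -0.25) and 18 with Dex (median -0.20). The difference between the subunits was not tested.

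**Figure D2:**
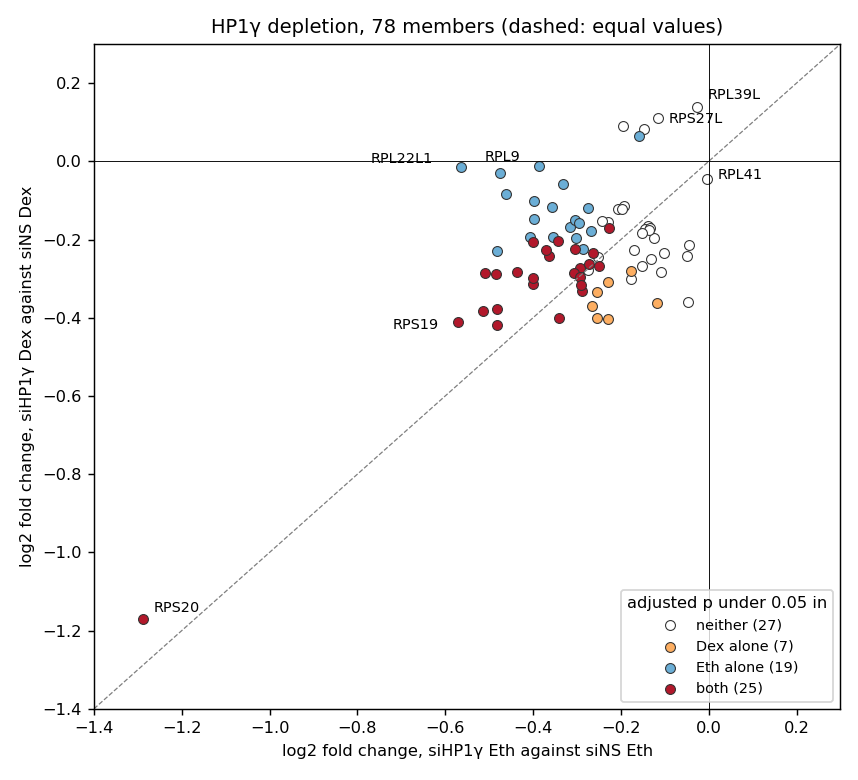
Log2 fold change of siHP1γ against siNS for the 78 genes with Eth (x axis) and with Dex (y axis), 3 libraries per condition, coloured by where the adjusted p is under 0.05, with the dashed line at equal values. RPS20 stands apart at -1.29 and -1.17, most other genes lie below 0 on both axes, and RPL22L1 lies near 0 with Dex alone.

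RPS20, a protein of the small subunit head, had the largest decrease of the group. Its level was 901, 1018 and 1047 CPM in the siNS Eth libraries and 393, 429 and 393 CPM in the siHP1γ Eth libraries. With Dex it was 867, 1012 and 916 CPM in siNS and 358, 437 and 448 CPM in siHP1γ. Every siHP1γ library lay below every siNS library. The log2 fold change was -1.29 (SE 0.085, adjusted p = 2.86e-11, edgeR) with Eth and -1.17 (SE 0.085, adjusted p = 1.89e-10) with Dex, which placed RPS20 104th and 111th from the lowest among all genes tested. In siPRMT5 cells it was at 934 ± 69.2 CPM with Eth and 923 ± 64.4 with Dex (SD, n = 3), within the range of the siNS libraries. Pseudogenes held 9.43% of its pooled counts, and with these added the fold changes were -1.28 and -1.16. The RPS20 gene holds 1 snoRNA in the annotation and overlaps no other gene.

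RPS19, a small subunit protein whose gene is the most often mutated in Diamond-Blackfan anaemia, came next among the small subunit genes with Eth. It was at 290, 339 and 335 CPM in siNS Eth and at 197, 238 and 214 CPM in siHP1γ Eth. With Dex it was at 336, 334 and 295 CPM in siNS and at 221, 241 and 265 CPM in siHP1γ. The ranges did not overlap in either treatment, and the log2 fold changes were -0.57 (SE 0.095, adjusted p = 4.59e-05) and -0.41 (SE 0.094, adjusted p = 0.00205). RPS7, which also binds MDM2, ran from 203 to 216 CPM in siNS Eth and from 139 to 154 in siHP1γ Eth, and with Dex from 198 to 211 and from 151 to 154. Its replicates were tight and the groups stood apart, with log2 fold changes of -0.48 (adjusted p = 1.89e-06) and -0.42 (adjusted p = 1.74e-05), edgeR. Pseudogenes held 53.6% of the pooled counts of RPS7, and with these added its change with Dex was -0.31 (adjusted p = 0.00034, edgeR).

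Among the large subunit genes RPL22L1 and RPL21 fell most with Eth. RPL21 was at 23.4, 26.5 and 24.3 CPM in siNS Eth and at 18.03, 17.2 and 16.8 CPM in siHP1γ Eth, a log2 fold change of -0.51 (SE 0.098, adjusted p = 0.000243), and it fell with Dex as well (-0.38, adjusted p = 0.00456). Pseudogenes held 59.2% of its pooled counts. RPL5 and RPL11, which form a particle with 5S RNA and hold back MDM2, were lower with Eth (-0.30, adjusted p = 0.00029 and -0.29, adjusted p = 0.0069), and with Dex RPL11 was lower (-0.33, adjusted p = 0.0029) while RPL5 was at -0.15 (adjusted p = 0.067, and called by DESeq2 at 0.023 and with pseudogene counts added at 0.043). The stalk genes, whose proteins recruit elongation factors, were called with Dex for RPLP0 (-0.33, adjusted p = 0.027) and RPLP2 (-0.31, adjusted p = 0.045) and not for RPLP1 (-0.25, adjusted p = 0.10), and none of the 3 was called with Eth (-0.25, -0.23 and -0.13). The Dex calls were weak: both were lost with library totals (adjusted p = 0.088 and 0.14), without siNS Dex replicate 2 or 3 and without siHP1γ Dex replicate 1 (-0.17 for each), and that of RPLP2 also without siNS Dex replicate 1, siHP1γ Eth replicate 2 or siHP1γ Dex replicate 2 and with the replicate number as a block (adjusted p = 0.053). In a fit of the compared conditions alone RPLP0 (adjusted p = 0.0028) and RPLP2 (adjusted p = 0.0086) were called with Eth.

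RPS6, the protein that S6 kinases phosphorylate, changed by -0.27 with Eth (adjusted p = 0.0037) and by -0.18 with Dex (adjusted p = 0.059, and 0.035 with DESeq2). RPS27A, which is made as a fusion with ubiquitin, was lower in both (-0.27, adjusted p = 0.02 and -0.26, adjusted p = 0.032). Of 3 proteins known to carry methylated arginines, RPS2 was lower in both (-0.30, adjusted p = 0.0024 and -0.22, adjusted p = 0.028), and RPS3 (-0.14 and -0.18) and RPS10 (-0.05 and -0.36) were not called in either. The Dex calls of RPS27A and RPS2 were lost with library totals (adjusted p = 0.14 and 0.17) and without any 1 of the 3 siNS Dex libraries or of siHP1γ Dex replicates 1 and 2 (adjusted p from 0.051 to 0.20), where the change of RPS27A went to -0.17 without siHP1γ Dex replicate 1. The Eth call of RPS27A was lost with library totals (adjusted p = 0.065) and without siNS Eth replicate 1 or siHP1γ Eth replicate 2 or 3. RPL41 had the change nearest to 0 with Eth, at -0.0038. It is not among the genes the naming rule takes and was picked out for this value.

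**Figure D3:**
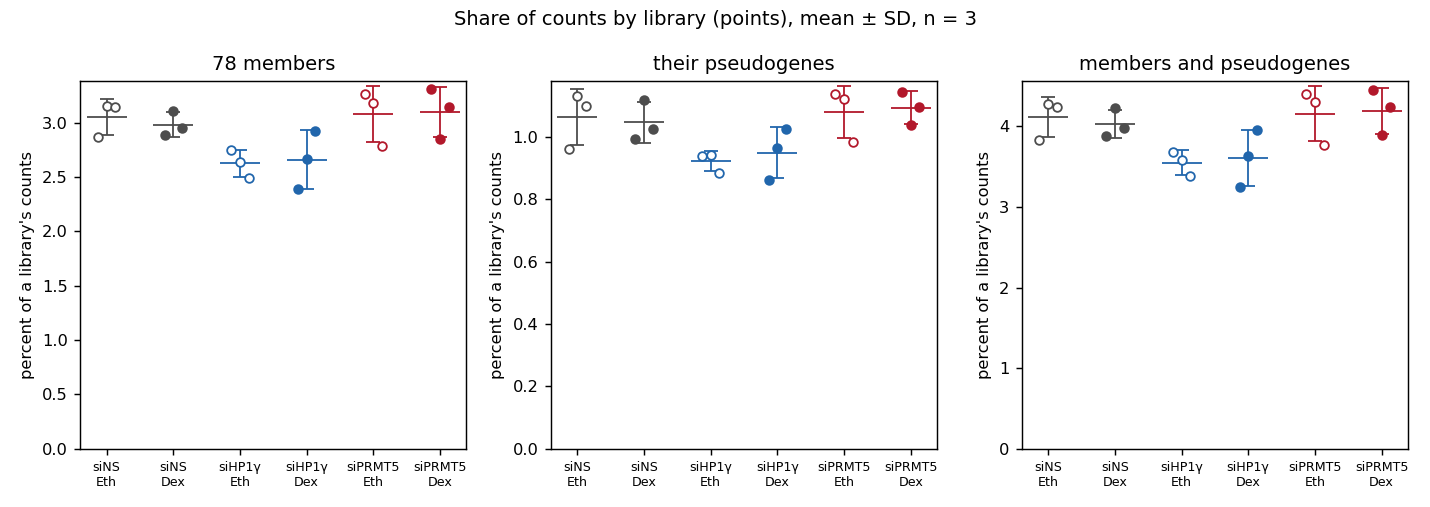
Percent of each library's counts on the 78 genes, on their pseudogenes and on both together, by condition (points are libraries, bars mean ± SD, n = 3). The siHP1γ libraries are the lowest on average in all 3 panels, and for the 78 genes siHP1γ Dex spans the widest range, from 2.39% to 2.93%.

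The summed share of counts showed the same order without any test per gene. The 78 genes held 3.05 ± 0.163% of the counts in siNS Eth, 2.63 ± 0.126% in siHP1γ Eth and 3.08 ± 0.257% in siPRMT5 Eth (SD, n = 3). With Dex they held 2.98 ± 0.114%, 2.66 ± 0.267% and 3.10 ± 0.232%. In siHP1γ Eth every library lay below every siNS Eth library (exact two-sided permutation p = 0.1, the smallest that 3 against 3 allows), while with Dex siHP1γ replicate 3, at 2.93%, lay inside the siNS range (exact permutation p = 0.2). Without RPS20 the share with Eth was still lower by 12.5% of its siNS value (exact permutation p = 0.1). The pseudogenes alone went from 1.07 ± 0.0898% to 0.922 ± 0.0319% with Eth (exact permutation p = 0.1).

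The replicates of siHP1γ Dex differed from each other across the whole group, with the 78 genes at 2.39% of the counts in replicate 1, 2.66% in replicate 2 and 2.93% in replicate 3. The count of 32 genes lower with Dex moved with these libraries: it was 11 without siHP1γ Dex replicate 1, 19 without replicate 2 and 50 without replicate 3, and 12 and 21 without siNS Dex replicate 2 and 3. The median stayed below 0 in all of these fits, between -0.29 and -0.16. With Eth the count stayed between 36 and 48 whichever of the 18 libraries was left out. When libraries were scaled by their totals alone, the median of all genes moved to 0.09 with Dex and 0.07 with Eth, the calls over all genes shifted to 2848 higher and 1269 lower with Dex (1787 and 1882 with TMM) and to 3198 and 1814 with Eth (2531 and 2329 with TMM), and 10 and 39 ribosomal protein genes were lower.

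Short and abundant mRNAs of genes that are not members had fold changes that were mostly below 0 as well. Among genes that are not members, 148 had a spliced length under 1000 bases and at least 100 CPM, and their median log2 fold change with HP1γ depletion was -0.14 with Eth and -0.14 with Dex, with 83.8% and 83.1% below 0 and 35.8% and 26.4% called lower. The 74 mitochondrial ribosomal protein genes tested, which encode the ribosome of the other compartment, had medians of -0.16 with Eth (19 lower, 1 higher) and -0.07 with Dex (9 lower, 2 higher, where 12.3% of all genes were lower). Of the cytosolic members 43 had a spliced length under 1000 bases, and some were under 100 CPM, so the 148 genes are not matched to them. The part of transcript length and level in the result for the cytosolic genes was not tested. In bulk RNA, fewer transcripts per cell and a change in the make-up of the cells cannot be told apart.

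The members with a pyrimidine run at the start had a median log2 fold change of -0.29 with Eth (28 of 48 lower) and -0.23 with Dex (22 of 48 lower). The 15 with an entry and no such run had medians of -0.21 (8 lower) and -0.12 (1 lower). The difference between the 2 sets was not tested, and the sets rest on 1 RefSeq start per gene.

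**Figure D4:**
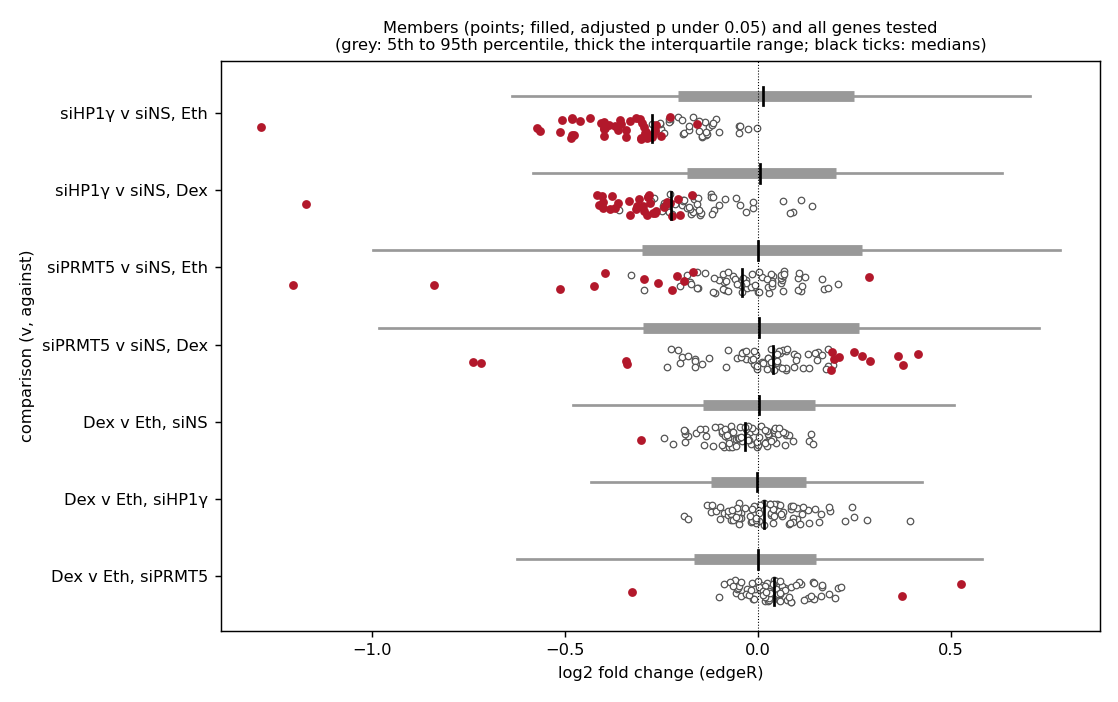
Log2 fold changes of the 78 genes (points, filled where the adjusted p is under 0.05) in 7 comparisons, with the 5th to 95th and 25th to 75th percentiles of all genes tested in grey and medians as black ticks. The members shift to the left of all genes in both siHP1γ comparisons, and in the siPRMT5 comparisons they stay near 0 with RPL22L1 and RPL38 far to the left.

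After PRMT5 depletion the fold changes of the ribosomal protein genes were centred near 0, and a few genes changed strongly. With Eth 11 of 78 genes were lower and 1 was higher in siPRMT5 than in siNS cells, where 21.6% of all genes tested were lower and 20.6% higher (42.1% in either direction), and the median was -0.04 on the log2 scale. With Dex 4 were lower and 10 higher, against 21.9% and 20.6% of all genes (42.4% in either direction), with a median of 0.04. The 4 genes lower with Dex, RPL22L1, RPL38, RPL21 and RPL39L, were also among the 11 lower with Eth, and the 2 comparisons share no library. Of the 78 fold changes, 26 were below 0 in both and 26 were above 0 in both. Over all genes tested, 76.6% had the same sign in both.

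RPL22L1, a paralog of the large subunit protein RPL22 that also binds pre-mRNA, had the largest decrease with Eth and, with Dex, one close to that of RPL38. Its level was 198, 153 and 165 CPM in siNS Eth and 77.0, 72.4 and 74.1 CPM in siPRMT5 Eth. With Dex it was 145, 137 and 135 CPM in siNS and 89.5, 90.1 and 74.01 CPM in siPRMT5. No siPRMT5 library reached the lowest siNS library, and the log2 fold changes were -1.21 (SE 0.091, adjusted p = 6.54e-11, edgeR) and -0.72 (SE 0.090, adjusted p = 4.29e-07). The partner RPL22 was at -0.18 (adjusted p = 0.15) and -0.04 (adjusted p = 0.78) on its own counts, and with pseudogene counts added it was called lower with Eth (-0.22, adjusted p = 0.015).

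RPL38, a small protein of the large subunit that mouse genetics ties to the translation of Hox mRNAs, was the other strong decrease. It was at 293, 296 and 291 CPM in siNS Eth and at 181, 169 and 143 CPM in siPRMT5 Eth. With Dex it was at 277, 305 and 263 CPM in siNS and at 179, 167 and 161 CPM in siPRMT5. The groups were far apart in both treatments, with log2 fold changes of -0.84 (SE 0.081, adjusted p = 5.54e-09) and -0.74 (SE 0.080, adjusted p = 4.36e-08), edgeR. HP1γ depletion lowered it by less, to 228 ± 17.5 CPM with Eth (log2 fold change -0.36, adjusted p = 0.000993) and 238 ± 11.9 with Dex (-0.24, adjusted p = 0.0264). The direct comparison of the depletions gave -0.48 with Eth (adjusted p = 2.53e-05) and -0.50 with Dex (adjusted p = 1.28e-05), lower in siPRMT5.

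**Figure D5:**
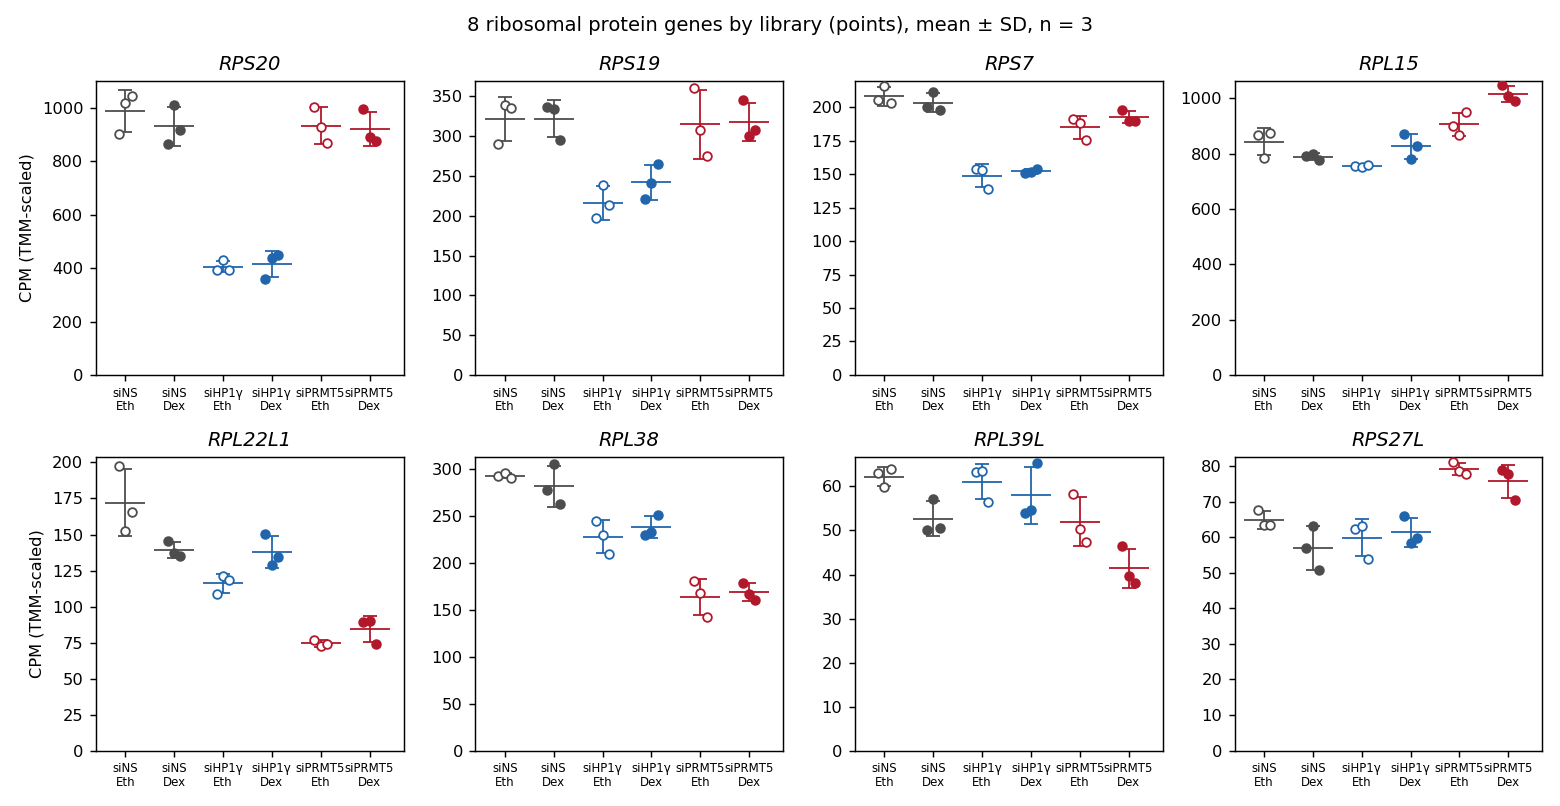
CPM of 8 ribosomal protein genes in the 18 libraries (points, open for Eth and filled for Dex, grey siNS, blue siHP1γ, red siPRMT5) with mean ± SD, n = 3, on axes that start at 0. RPS20, RPS19 and RPS7 are low in the siHP1γ libraries, RPL22L1 and RPL38 are lowest in the siPRMT5 libraries, the means of RPL39L are lowest and those of RPS27L highest there, and RPL15 is highest in siPRMT5 Dex.

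Among the 8 large subunit genes called lower with PRMT5 depletion and Eth on their own counts were RPL21, RPL9 and RPL39. Of these 3, RPL21 alone was still called lower with pseudogene counts added. The paralogs RPL39L and RPL7L1, also among the 8, are given further below. RPL21 was at 19.4, 20.1 and 16.0 CPM in siPRMT5 Eth (log2 fold change against siNS -0.42, adjusted p = 0.0011) and at 20.3, 18.2 and 18.6 CPM in siPRMT5 Dex (-0.34, adjusted p = 0.00589), so that it was lower under both depletions in both treatments. RPL9 was lower with Eth (-0.51, adjusted p = 4.38e-05), with 57.3% of its pooled counts on pseudogenes, and with these added its change was -0.15 and not called. RPL39, which lines the exit tunnel, was at -0.40 with Eth (adjusted p = 0.0038), but 94.9% of its pooled counts were on pseudogenes and with these added the change was 0.03 with Eth and 0.27 with Dex (adjusted p = 0.0051), where its own counts gave -0.21 (adjusted p = 0.11).

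The increases with PRMT5 depletion and Dex were led by RPS27L, a paralog of RPS27 that p53 is known to induce. It was at 57.1, 63.2 and 50.7 CPM in siNS Dex and at 78.9, 77.9 and 70.4 CPM in siPRMT5 Dex, a log2 fold change of 0.41 (SE 0.084, adjusted p = 0.000271). With Eth it was at 67.8, 63.6 and 63.4 CPM in siNS and at 81.1, 78.7 and 77.9 CPM in siPRMT5 (0.29, SE 0.084, adjusted p = 0.00743). All siPRMT5 libraries lay above all siNS libraries of the same treatment, and it was the only member higher with Eth.

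RPL15, an inner protein of the large subunit, was at 792, 799 and 777 CPM in siNS Dex and at 1047, 1008 and 989 CPM in siPRMT5 Dex (log2 fold change 0.36, SE 0.060, adjusted p = 2.57e-05), and with Eth it was at 0.10 (adjusted p = 0.18). RPS28 (0.38, adjusted p = 0.004) and RPS15A (0.29, adjusted p = 0.0327) were higher with Dex on the gene's own counts. Both calls were lost when pseudogene counts were added (0.21 and 0.24), and that of RPS15A also without siPRMT5 Dex replicate 1 or siNS Dex replicate 1 or 3. The count of 10 higher fell to 5 without siPRMT5 Dex replicate 1 and to 6 without siNS Dex replicate 1 or 3, and the count of 1 higher with Eth rose to 5 without siPRMT5 Eth replicate 3.

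Of the genes named for their role, RPL5 was higher with Dex in siPRMT5 cells (0.19, adjusted p = 0.012) and at 0.03 with Eth. The stalk genes RPLP0, RPLP1 and RPLP2, the kinase target RPS6, the arginine methylation substrates RPS2, RPS3 and RPS10, the 5S partner RPL11 and the ubiquitin fusion RPS27A were not called in siPRMT5 cells in either treatment, with log2 fold changes between -0.16 and 0.18.

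Compared directly, siPRMT5 cells had higher levels than siHP1γ cells for 42 of 78 genes with Eth and 49 with Dex, and lower levels for 3 in each. Over all genes tested 23.4% were higher and 25.0% lower with Eth (48.4% in all), and 24.4% and 25.5% with Dex (49.9% in all). The 42 genes higher with Eth were all among the 49 higher with Dex, and the 3 lower, RPL22L1, RPL38 and RPL39L, were the same in both. Of the 78 fold changes, 68 were above 0 in both and 5 below 0 in both. Over all genes tested, 83.3% had the same sign in both. RPS20 (1.21 and 1.16) and RPS15A (0.61 and 0.60) had the largest differences. RPS15A was at 98.0, 77.3 and 79.2 CPM in siHP1γ Eth and at 132, 146 and 109 CPM in siPRMT5 Eth, without overlap.

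Dex itself changed few ribosomal protein genes. In siNS cells 0 of 78 passed an adjusted p under 0.01 with a fold change of at least 1.5, against 2.71% of all genes tested. At an adjusted p under 0.05 with no fold limit 1 was lower, RPL22L1, against 4.28% lower, 4.88% higher and 9.16% in either direction over all genes tested, and edgeR had 9 lower and 0 higher at an unadjusted p under 0.05. DESeq2 gave 0 and 1 under the same thresholds. In siHP1γ cells 0 passed either threshold with edgeR or DESeq2, against 1.67% and 5.55% of all genes (2.44% higher and 3.10% lower), with 8 higher and 0 lower at an unadjusted p under 0.05. The medians were -0.03 and 0.02 on the log2 scale.

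In siPRMT5 cells 0 passed the stricter threshold by edgeR or DESeq2 (5.44% of all genes), and at an adjusted p under 0.05 2 were higher and 1 was lower, against 7.52% and 8.48% of all genes (16.0% in either direction). RPL36A was at 11.6, 8.92 and 10.1 CPM in siPRMT5 Eth and at 15.7, 13.9 and 14.6 CPM in siPRMT5 Dex (log2 fold change 0.53, SE 0.14, adjusted p = 0.00884, edgeR). Its groups did not overlap, its mean was 126 counts per library, its locus overlaps GLA and a readthrough transcript with HNRNPH2, and the call was lost without siPRMT5 Eth replicate 2 (adjusted p = 0.0578). RPL39L, a paralog of RPL39 known from testis and from tumours, was lower with Dex (-0.33, adjusted p = 0.021), a call that was lost without siPRMT5 Eth replicate 1 or siPRMT5 Dex replicate 2 or 3.

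RPL22L1 was the only member past the threshold for a difference in Dex response between depleted and siNS cells by edgeR. DESeq2 called 4 members higher for HP1γ and 5 for PRMT5, and over all genes it called 100 higher and 200 lower (18 and 43 with edgeR) and 300 and 384 (241 and 341 with edgeR). Dex took it from 172 ± 23.2 to 139 ± 5.39 CPM in siNS cells (log2 fold change -0.30, SE 0.087, adjusted p = 0.0266), from 116 ± 6.41 to 138 ± 11.3 in siHP1γ cells (0.25, adjusted p = 0.11) and from 74.5 ± 2.28 to 84.5 ± 9.13 in siPRMT5 cells (0.19, adjusted p = 0.20), mean ± SD of 3 libraries. The level in siHP1γ Dex, with libraries at 150, 129 and 134 CPM, overlapped that of siNS Dex, whereas in siHP1γ Eth, at 109, 121 and 118 CPM, it lay below all siNS Eth libraries. The interaction was 0.55 (SE 0.12, adjusted p = 0.0439, edgeR) for HP1γ, where 0.399% of all genes passed (0.118% higher and 0.281% lower), and 0.49 (SE 0.13, adjusted p = 0.0284) for PRMT5, where 3.80% passed (1.58% higher and 2.23% lower). Replicate 1 of siNS Eth, at 198 CPM, is the highest library, and without it the interactions were 0.45 (adjusted p = 0.16) and 0.39 (adjusted p = 0.095) and the Dex change in siNS cells -0.19 (adjusted p = 0.24). The calls did not hang on that library alone: of 18 fits that each left out 1 library, 9 lost the HP1γ interaction and 6 that of PRMT5, and the Dex change was also lost without siNS Dex replicate 2 or 3 (adjusted p = 0.077 and 0.11).

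The 5 paralogs among the members gave other counts than the rest, a difference that was not tested. With HP1γ depletion 1 of 5 was lower with Eth (RPL22L1) and 0 of 5 with Dex, where the other 73 genes had 43 and 32 lower. With PRMT5 depletion 3 of 5 were lower with Eth and 2 with Dex, and RPS27L was higher in both, so that all but RPL26L1 passed the test in siPRMT5 Eth. RPL39L was at 62.3 ± 2.15 CPM in siNS Eth, 61.1 ± 3.95 in siHP1γ Eth and 52.0 ± 5.6 in siPRMT5 Eth (-0.26 against siNS, adjusted p = 0.0308), and at 52.7 ± 3.94, 58.0 ± 6.39 and 41.4 ± 4.41 with Dex (-0.34 in siPRMT5, adjusted p = 0.00563), SD, n = 3. The call with Eth was lost without siNS Eth replicate 1 or 3 or siPRMT5 Eth replicate 2 or 3. RPL7L1, which resembles RPL7 and works in ribosome assembly, was lower in siPRMT5 Eth (-0.22, adjusted p = 0.0059, and 0.052 without siPRMT5 Eth replicate 2), and RPL26L1 was not called in any depletion (-0.23 to -0.16). Of the core partners, RPL7 (-0.27, adjusted p = 0.0088), RPL22 (-0.33, adjusted p = 0.013) and RPL39 (-0.48, adjusted p = 0.001) were lower in siHP1γ Eth, and RPL3 (-0.36, adjusted p = 0.029) and RPL39 (-0.38, adjusted p = 0.0092) in siHP1γ Dex. With pseudogenes added the change of RPL39 was -0.25 with Eth and -0.07, no longer called, with Dex. Calls were lost without 1 library for RPL7 (siHP1γ Eth replicate 3), RPL22 (siNS Eth replicate 1 or 3, siHP1γ Eth replicate 1), RPL39 with Dex (siNS Dex or siHP1γ Dex replicate 2) and RPL3 (siNS Dex replicate 2 or 3, and siHP1γ Dex replicate 1, where it was at -0.20), and for RPL3 also with library totals (adjusted p = 0.083). RPL10, RPL26, RPL36A and RPS27 were not called in any depletion on their own counts in the main fit. In a fit of the compared conditions alone RPL26 was called lower in siHP1γ Eth and Dex (adjusted p = 0.012 and 0.039, edgeR). RPL10 was called lower there in siHP1γ Eth (adjusted p = 0.022). Without a filter on low counts RPL26 was called lower in both treatments (adjusted p = 0.0057 and 0.0058). With pseudogenes added RPL26 was called lower in siHP1γ Eth (-0.26, adjusted p = 0.043) and siHP1γ Dex (-0.29, adjusted p = 0.027), and with the replicate number as a block RPL36A was called lower in siPRMT5 Eth (-0.33, adjusted p = 0.041).

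Ribosomal proteins whose symbols do not follow the pattern include RPSA, FAU, RPL36AL and RACK1. Of 5 such genes tested, 2 were lower in siHP1γ Eth and 2 in siHP1γ Dex, with medians of -0.18 and -0.23, and 1 was lower in siPRMT5 Eth. FAU was lower in siHP1γ Eth (-0.56) and RPSA in both treatments (-0.44 with Eth, -0.25 with Dex). Of 18 translation factors and other genes known for TOP mRNAs, 16 were tested, and 6 were lower and 0 higher with HP1γ depletion in each treatment (medians -0.16 with Eth and -0.15 with Dex). NPM1, a nucleolar chaperone, was lower in both (-0.50 and -0.40), as was HNRNPA1 (-0.55 and -0.40). With PRMT5 depletion 1 of the 16 was higher and 3 lower with Eth, and 4 were higher and 0 lower with Dex, among these TPT1 (0.32) and PABPC1 (0.31).

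Hosts of snoRNAs outside the ribosomal protein genes were often lower with both depletions. Of 12 tested, 8 were lower in siHP1γ Eth, 7 in siHP1γ Dex, 8 in siPRMT5 Eth and 5 in siPRMT5 Dex, where 2 were higher (SNHG15, EPB41L4A-AS1). SNHG6 had the largest change in siHP1γ cells (-1.32 with Eth, -1.07 with Dex), of the size of that of RPS20, and SNHG16 in siPRMT5 cells (-1.21 and -0.66). Dex raised 7 of the 12 in siPRMT5 cells, 1 in siHP1γ cells and 0 in siNS cells. Over all genes tested Dex raised 7.52%, 2.44% and 4.88%, in the same order.

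Of 31 ribosome assembly factors tested, 7 were lower and 3 higher with HP1γ depletion in each treatment (medians -0.09 with Eth and -0.01 with Dex). RPF2, which brings the 5S particle to the large subunit, was lower (-0.73 with Eth, -0.55 with Dex). With PRMT5 depletion 10 were lower and 5 higher with Eth, and 4 were lower and 12 higher with Dex. SBDS, which frees the large subunit of EIF6, had the largest decrease (-1.29 with Eth, -1.13 with Dex), and RIOK1, a kinase of the PRMT5 complex and of small subunit maturation, was higher with Dex (0.56). Of 19 genes of ribosomal RNA synthesis and modification, 8 and 7 were lower and 0 higher in siHP1γ cells with Eth and Dex, led by POLR1E (-0.72 and -0.68), a subunit of RNA polymerase I, and 9 and 5 were lower and 1 higher in siPRMT5 cells, led by NOLC1 (-0.76 and -0.59).

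Of 19 known regulators of ribosomal protein synthesis, MYC was lower in all 4 depletion comparisons, by -0.47 and -0.44 in siHP1γ and by -0.92 and -0.47 in siPRMT5 cells with Eth and Dex. LARP1, which binds TOP mRNAs, was lower in siHP1γ Dex (-0.37) and in siPRMT5 cells with both treatments (-0.49 and -0.45). TSC1, an inhibitor of mTOR signalling, was higher in all 4 (0.56 and 0.30, 0.76 and 0.46). MTOR itself was higher in siHP1γ Eth (0.46) and siPRMT5 Eth (0.33), and its partner RPTOR was higher in siHP1γ Eth (0.40) and lower in siPRMT5 Dex (-0.33), values that were picked out after they were seen. MXI1, a MAX partner that opposes MYC, had the largest decrease of the list in siPRMT5 cells (-1.63 and -1.75) and was higher in siHP1γ Dex (0.28). EIF4EBP2 was lower in siPRMT5 cells (-0.71 with Eth, -0.60 with Dex) and higher in siHP1γ cells (0.32 and 0.30). EIF4E was lower in siPRMT5 cells (-0.98 and -0.33) and in siHP1γ Eth (-0.49). RPS6KB1 was higher in siHP1γ Dex (0.35) and siPRMT5 Dex (0.24), and GABPA in siPRMT5 Dex (0.54). In all, 5 were higher and 3 lower in siHP1γ Eth, 5 and 2 in siHP1γ Dex, 4 and 8 in siPRMT5 Eth, and 5 and 7 in siPRMT5 Dex. For these lists as for the members, the shares over all genes were 16.5% higher and 15.2% lower in siHP1γ Eth, 11.7% and 12.3% in siHP1γ Dex, 20.6% and 21.6% in siPRMT5 Eth, and 20.6% and 21.9% in siPRMT5 Dex, and the lists were not tested against them.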

How the data were processed

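Counts of 18 libraries were used, in 6 conditions of 3 replicates, with groups and replicate numbers from the sample titles. Library making used Lexogen kits, and reads were mapped to hg38 with Bowtie2 2.4.2 and assigned to genes with HTSeq 0.9.1 (versions from the submitters' processing notes). The authors deposited raw, whole-number counts per gene symbol. Bowtie2 does not split reads over introns, and the strand setting and annotation used for counting are not given in the sources used here, so reads shared with pseudogenes or overlapping genes cannot be assigned with certainty. The authors' own table of fold changes and adjusted p-values was left out.

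With edgeR 4.0.16 in R 4.3.3, filterByExpr kept 15298 genes, all 78 members among them. A single quasi-likelihood model with TMM scaling and a mean for each condition was fitted to all libraries (12 residual degrees of freedom), p-values were adjusted by Benjamini-Hochberg over every gene tested, and SE is the absolute log2 fold change over the root of F. CPM are TMM-scaled, while shares are of unscaled totals and were compared by exact permutation. Calls are at an adjusted p under 0.05, and for Dex also at 0.01 with 1.5-fold (the paper names limits of both 1.5-fold and 2-fold). Replicates differed beyond sampling noise (chi-square per degree of freedom 2.01 to 11.3). On simulated counts for siHP1γ Eth against siNS Eth, the fit recovered 80 of 100 genes changed by 0.5 on the log2 scale and 100 of 100 changed by 1. Smaller changes, and shifts shared by many genes, were not simulated.

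The members and lists were chosen with earlier results of these data known. Members were named when among the 4 largest changes per direction in a depletion comparison (2 in the others) past the threshold with at least 5 CPM, past an interaction, a paralog or its partner, among the 5 highest or lowest per kb, at the count limit, or listed for a role. Gene models are from GENCODE 44 (hg38) and start sequences from RefSeq (GRCh38.p14), with none shown for chromosome 8, where RPS20 lies. Protein sequences were not analysed here, and a few genes that enter the fits and counts are not reported here by name. Alternatives were DESeq2 1.42.0, its size factors, library totals, other filters on low counts, a replicate block, the compared conditions alone, pseudogene counts added, only members with at least 100 counts, and each library left out.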

Additional observations from a re-analysis of the deposited data

Results flagged for a closer look

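RPL22L1 met the criterion of an effect that differs between groups, for both depletions. Its Dex response was higher in siHP1γ than in siNS cells by 0.551 on the log2 scale (SE 0.12, adjusted p = 0.0439, edgeR) and higher in siPRMT5 than in siNS cells by 0.488 (SE 0.13, adjusted p = 0.0284). Leaving out 1 library at a time gave 0.45 to 0.64 for HP1γ (adjusted p 0.014 to 0.17) and 0.39 to 0.58 for PRMT5 (adjusted p 0.0091 to 0.095), always above 0. The siNS Eth libraries, which enter both interactions, were at 198, 153 and 165 CPM. No member's condition held enough libraries (4 or more) for a single library to be tested as an outlier.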

How the results depend on the processing

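Most results kept their direction and their side of the threshold. No median over the members changed sign or moved beyond its spread under the alternatives other than leaving out a library. The counts that moved by over 1.5 times were these. With library totals in place of TMM, 10 genes were lower in siHP1γ Dex (32 with TMM). Without a filter on low counts, 7 were lower in siPRMT5 Dex, 2 higher in siPRMT5 Eth and 2 higher in the PRMT5 interaction. In the compared conditions alone, 8 were lower in siPRMT5 Dex and 2 lower with Dex in siNS cells. With DESeq2, 4 were higher in the HP1γ interaction and 5 in the PRMT5 interaction. With pseudogene counts added, 1 was higher with Dex in siPRMT5 cells and RPL39 went to 0.026 in siPRMT5 Eth and to 0.27 (now called) in siPRMT5 Dex, both with the sign turned. With an adjusted p under 0.05 and no fold limit, Dex called 1 gene in siNS cells and 3 in siPRMT5 cells. The cause of these shifts was not tested.

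When each of the 18 libraries was left out, the genes called lower ranged from 11 to 50 in siHP1γ Dex, 36 to 48 in siHP1γ Eth, 8 to 13 in siPRMT5 Eth and 0 to 1 with Dex in siNS cells and in siPRMT5 cells. Those called higher ranged from 5 to 11 in siPRMT5 Dex, 1 to 5 in siPRMT5 Eth, 1 to 4 with Dex in siPRMT5 cells (0 to 1 at 0.01 with 1.5-fold), 0 to 1 in the HP1γ interaction and 0 to 6 in the PRMT5 interaction. In siPRMT5 against siHP1γ they ranged from 38 to 57 with Dex and 30 to 51 with Eth. The members' median stayed below 0 in both siHP1γ comparisons (-0.29 to -0.16 with Dex, -0.32 to -0.25 with Eth) and lay on both sides of 0 in siPRMT5 Eth (-0.08 to 0.03), in siPRMT5 Dex (lowest -0.0019) and with Dex in siHP1γ (-0.03 to 0.08) and siPRMT5 cells (-0.02 to 0.09). The members' share of counts changed sign in 3 comparisons: -2.23% to 5.65% for siPRMT5 Eth against siNS Eth, and -3.75% to 6.42% and -3.87% to 4.78% for Dex in siHP1γ and siPRMT5 cells.

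Replicates share a number in the labels. Of 27 same-numbered pairs, 4 had a correlation of deviations over 0.1 (-0.13 to 0.17). Out of 3 numbers, 10 of 18 libraries correlated best with their own. The count expected by chance was not worked out, so these values do not settle whether the numbers pair the libraries. The main fit left the numbers out. In a fit blocked on that number, 29 genes were lower in siHP1γ Dex, 44 in siHP1γ Eth and 12 in siPRMT5 Eth, and 10 were higher in siPRMT5 Dex. Members under about 20 CPM, such as RPS27 and RPL36A, carried larger errors than RPS20 (SE 0.18 and 0.14 against 0.085 in siHP1γ Eth), and n = 3 cannot reach an exact permutation p under 0.1.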
